A study of Mus musculus with 4 samples.

Results

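The genes described here belong to the macrophage, the tissue phagocyte of the innate immune system. They are 34 genes for its secreted effectors, Fc receptors and their adapters, scavenger and lectin receptors, cytokine receptors, oxidase, identity markers and leukocyte signalling proteins. The members were listed by name, 35 symbols in all. Adgre1 was found under its current symbol and its older symbol Emr1 had no row, which leaves 34 of the 24216 rows of the authors' deposited table. All 34 had been tested by the authors and had a value above 0 in both tissues, and no filter on low values was applied to them.

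The groups were molar pulp, with 2 libraries, and incisor pulp, with 2 libraries, both from XLacZ4 mice, whose age the labels do not give. Pulp is the soft core of the tooth. The mouse incisor grows throughout life and the molar does not. XLacZ4 animals carry a transgene that marks mural cells, meaning pericytes and vascular smooth muscle, with bacterial beta-galactosidase, and both tissues share it. Both were dissociated, stained with FDG, which fluoresces once a beta-galactosidase has cut it, and sorted for fluorescent cells. The authors' deposited table holds 1 FPKM value per tissue (fragments per kilobase of transcript, scaled to sequencing depth), so no value here carries an SD or an n, and the depth behind it is unknown. A gene is "called" where the q value in that table is under 0.05.

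Macrophages take up dead cells, microbes and debris. Opsonins such as C1q and antibodies tag a particle, Fc and lectin receptors bind it, and many of these receptors have no signalling tail of their own and depend on the adapters encoded by Fcer1g and Tyrobp, which carry an immunoreceptor tyrosine-based activation motif. The transcription factor PU.1, encoded by Spi1, is needed to make the lineage. In healthy dental pulp, resident macrophages lie largely beside vessels and clear debris.

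In the table as a whole, the FPKM values summed to 815089 in molar and 539574 in incisor, 0.60 apart on the log2 scale. Rows above 0 in both tissues had a median log2 fold of 0.22. Every called member had an absolute log2 fold above either shift, but so did every called row above 0 in both tissues. The smallest such fold was 1.097, so this is no trait of the members. Of the 8 mural markers, 1 was called higher in molar and 2 in incisor. Kcnj8 stood at 108 in molar and 16.0 in incisor (q = 0.000664), Rgs5 at 127 and 537 (q = 0.000664), and Pdgfrb at 12.6 and 30.3 (q = 0.0353). Cspg4 (2.86 and 3.01, q = 0.844) and Myh11 (0.804 and 1.92, q = 0.252) were uncalled and low. Among macrophage markers, Lyz2, C1qb and Cd68 lay above each of the 8 mural markers in both tissues. C1qa and C1qc did so in molar but lay below Rgs5 in incisor. Adgre1, Mrc1, Csf1r and Cx3cr1 lay below Rgs5 in both tissues. All 5 dental epithelial markers were called higher in incisor, with a summed level of 2610 FPKM in molar and 23157 in incisor, led by Amelx, which encodes the enamel protein amelogenin (1937 and 20642). Their part in the members' values was not tested. The 34 members made up 2.09% of the molar FPKM sum and 1.74% of the incisor sum. In such bulk values more cells of a type and more RNA per cell cannot be told apart, and effects of sorting or of library preparation cannot be told apart from those of the tooth. The lysosomal enzyme encoded by Glb1 can also cut FDG, and macrophages are rich in lysosomes. Its row, which is joined with Tmppe, stood at 29.0 in molar and 13.4 in incisor in the authors' deposited table (q = 0.124), and its part in the results below was not tested.

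The members ranged from 4.67 to 3340 FPKM in molar and from 1.73 to 1903 in incisor. More of them were called toward molar than toward incisor, which was also true of all tested rows (2228 and 804). In the authors' deposited table, 11 of 34 were called higher in molar (32.4%), against 11.9% of all 18770 tested rows and 21.7% of the 7913 tested rows with 5 FPKM or more in either tissue. They were C1qa, C1qc, Fcer1g, Tyrobp, Fcgr2b, Cd163, Lyve1, Aif1, Ms4a7, Spi1 and Cd53. Mpeg1 alone was called higher in incisor, 1 of 34 against 4.28% of all tested rows and 9.02% of those with 5 FPKM or more. At q under 0.01 the counts were 6 of 34 toward molar, against 8.8% of all tested rows, and 1 of 34 toward incisor, against 2.27%. All 34 members had 5 FPKM or more in either tissue, and the share of such rows called at q under 0.01 was not computed. At q under 0.05 the other 22 members were not called, although 16 members had an unadjusted p under 0.05 toward molar and 3 toward incisor. On the scale log2((molar FPKM + 1)/(incisor FPKM + 1)), the median was 0.87 over the 34 members and 0.14 over the 13200 rows with 1 FPKM or more in either tissue. The molar value was above the incisor value for 27 members and below it for 7.

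Transcript length moved with these differences, among the members and across the whole table. The expressed genes were split by transcript length into 10 classes of equal size. Molar-higher calls covered 26.1%, 31.9% and 28.9% of the tested genes in the 3 shortest classes, and 5.23% in the longest class. Over the 12992 rows with 1 FPKM or more and a known length, Spearman's rho between length and the log2 difference was -0.37, and over the 34 members it was -0.39; genes are not independent replicates, and both are descriptions. Of the 17 members with transcripts under 2000 bases, 7 were called higher in molar (41.2%), against 28.9% of genes of that length with 1 FPKM or more. Of the 17 longer members, 4 were called higher in molar (23.5%), against 10.5% of longer genes with 1 FPKM or more. All 34 members had 5 FPKM or more in either tissue, so these shares are matched for length but not for level. When each member was set against the median of all genes in the same length class, the members' median fell to 0.41, 25 members lay above 0 and 9 below. The part of transcript length in the single values below was not tested further.

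**Figure D1:**
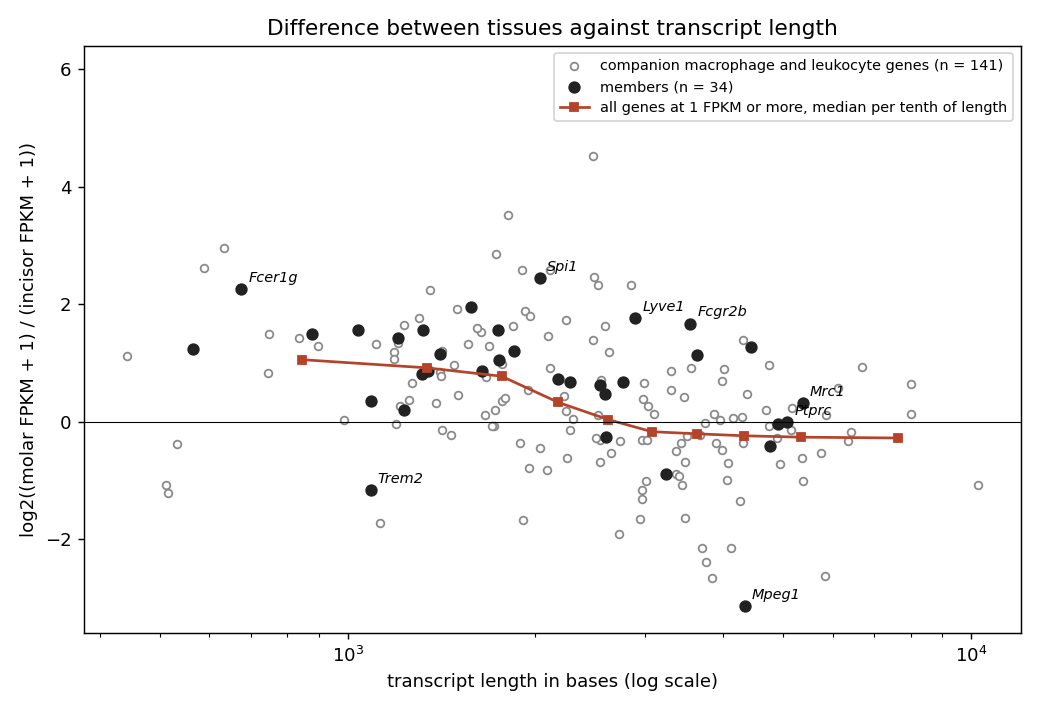
Log2 difference between molar and incisor (y axis, pseudocount 1) against transcript length in bases (x axis, log scale) for the 34 members (filled points), the 141 companion macrophage and leukocyte genes with 1 FPKM or more (open points), and the median of all genes in each of 10 length classes (squares, line). The line descends from 1.06 in the shortest class to -0.28 in the longest, and Spi1, Lyve1 and Fcgr2b lie well above it while Trem2 and Mpeg1 lie well below it.

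Among the secreted effectors, C1qa and C1qc of the C1q chains were called higher in molar and C1qb was not. Whether the chains differ from one another in their change was not tested. C1q is the recognition molecule of the classical complement pathway, built of A, B and C chains in equal numbers, and its genes lie side by side on chromosome 4 of mm10. C1qa (136895916 to 136898844) stood at 757 FPKM in molar and 255 in incisor, a 2.96-fold difference with q = 0.00916 in the authors' deposited table. C1qc (136889802 to 136892914) stood at 528 in molar and 195 in incisor, 2.70-fold with q = 0.0196. C1qb (136880145 to 136886177) was the most abundant of these chains in both tissues, with 2145 in molar and 1679 in incisor, but it missed the threshold (q = 0.414). The A to C ratio was thus 1.43 in molar and 1.31 in incisor, while the B to A ratio was 2.83 in molar and 6.57 in incisor. The C1q transcripts are of like length, 1040 to 1203 bases, and none of the words of 32 bases in them occurs in another gene. The part of length or of shared sequence in the C1q values was not tested.

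The strongest members by level were not called. Lyz2, the lysozyme of macrophages and neutrophils that cuts bacterial cell walls (chromosome 10, 117277541 to 117282272), stood at 3340 in molar and 1903 in incisor with q = 0.228, rank 31 and rank 28 of all rows. Its transcript shares 31.7% of its 32-base words with Lyz1, which had 0.118 FPKM in molar and 0.167 in incisor, and how the counting divided reads between the copies is not given. Apoe, the lipid carrier protein that macrophages secrete and that other cells make too (chromosome 7, 19696244 to 19699188), stood at 2909 in molar and 1306 in incisor with q = 0.189.

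**Figure D2:**
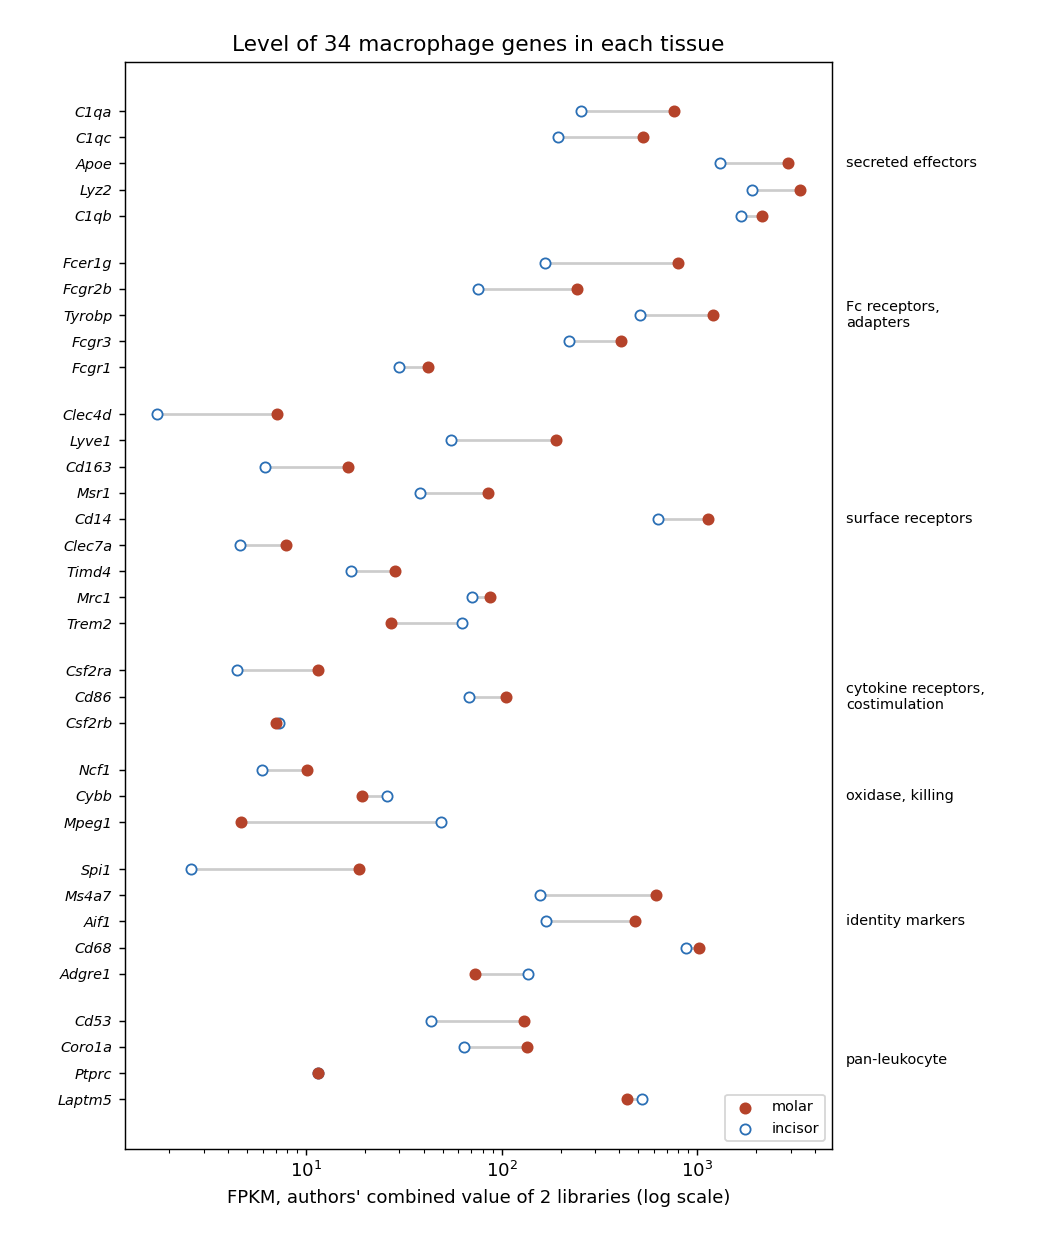
FPKM of the 34 members (x axis, log scale) in molar (filled) and incisor (open), grouped by role, 1 combined value of 2 libraries per tissue from the authors' deposited table. Lyz2, Apoe and C1qb lie above 1300 in both tissues, and Mpeg1, Spi1 and Fcer1g show the widest gaps.

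The adapters and the inhibitory Fc receptor were called higher in molar and the activating Fc receptors were not. Fcer1g, the signalling chain of the activating Fc receptors and of several lectins (chromosome 1, 171229572 to 171234349), stood at 800 FPKM in molar and 166 in incisor, 4.82-fold with q = 0.000664 in the authors' deposited table. Tyrobp, the adapter of TREM2 and other receptors (chromosome 7, 30413788 to 30417579), stood at 1208 in molar and 512 in incisor, 2.36-fold with q = 0.0367. Fcgr2b, the only Fc receptor for IgG that carries an inhibitory motif (chromosome 1, 170960559 to 170976071), stood at 243 in molar and 75.4 in incisor, 3.22-fold with q = 0.00176.

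Fcgr3, the low-affinity activating receptor for IgG, stood at 405 in molar and 221 in incisor (q = 0.155), and Fcgr1, the high-affinity receptor, at 42.0 and 30.0 (q = 0.301). Both pair with the Fcer1g chain. The ratio of Fcgr2b to Fcgr3 was 0.599 in molar and 0.342 in incisor, and that of Fcer1g to Fcgr3 was 1.98 in molar and 0.754 in incisor. Fcgr3 shares 17.3% of its transcript words with Fcgr2b, so the split between this pair is uncertain. Whether the calls of this group differ from one another was not tested, since an uncalled gene is not shown to be equal in both tissues. Fcer1g is also a chain of the IgE receptor of mast cells, whose 7 markers summed to 4.54 FPKM in molar and 91.6 in incisor. The incisor sum was mostly Tpsb2 (0.0958 in molar, 46.3 in incisor, q = 0.347) and Cma1 (0.0578 and 29.7, q = 0.383), both uncalled. Cpa3 was called higher in incisor (listed at 0 in molar, 2.12 in incisor, q = 0.000664), Ms4a2 stood at 0.187 and 0.00301 (q = 0.405), and Fcer1a was listed at 0 in both tissues. The part of mast cells in the Fcer1g value was not tested.

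Of the 9 surface receptors for lipids, sugars and microbes, Lyve1 and Cd163 were called, both higher in molar. Lyve1, a hyaluronan receptor of vessel-associated macrophages and of lymphatic endothelium (chromosome 7, 110850607 to 110862953), stood at 189 FPKM in molar and 54.8 in incisor, 3.46-fold with q = 0.00326 in the authors' deposited table. The lymphatic genes Prox1 (0.350 in molar, 0.0393 in incisor), Flt4 (0.772 and 2.25) and Pdpn (9.36 and 23.2), chosen after the values were seen, were not called. The 5 blood endothelial markers summed to 101 in molar and 2.90 in incisor, and their part in the Lyve1 value was not tested. Cd163, which takes up haemoglobin bound to haptoglobin (chromosome 6, 124304651 to 124330527), stood at 16.4 in molar and 6.19 in incisor, 2.66-fold with q = 0.0297.

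The other receptors of this group were not called. Trem2, a lipid receptor that signals through Tyrobp (chromosome 17, 48346401 to 48352276), stood at 27.3 FPKM in molar and 62.6 in incisor, uncalled in the authors' deposited table (q = 0.124). It was the single receptor of this group with the lower value in molar, although its transcript of 1088 bases falls in a length class where the median gene was 1.06 higher in molar on the log2 scale. The ratio of Tyrobp to Trem2 was 44.3 in molar and 8.17 in incisor. Clec4d, a lectin for mycobacterial glycolipid, stood at 7.09 in molar and 1.73 in incisor with q = 0.0699, the uncalled member nearest the threshold. Msr1, a scavenger receptor for modified lipoprotein, followed with 85.0 in molar, 38.3 in incisor and q = 0.0722. The Msr1 row spans 760340 bases, against 99519 for the gene in RefSeq, and holds a row for a microRNA, so reads from outside the gene cannot be told apart.

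Cd14, which hands lipopolysaccharide to the Toll-like receptor encoded by Tlr4, was the most abundant receptor of the group, at 1139 in molar and 626 in incisor (q = 0.169). Mrc1, the mannose receptor, stood at 87.4 in molar and 70.1 in incisor (q = 0.422). Timd4, which binds phosphatidylserine on dying cells, stood at 28.6 in molar and 16.9 in incisor (q = 0.251). Clec7a, a receptor for fungal beta-glucan, stood at 7.91 in molar and 4.59 in incisor (q = 0.252). None of these 4 passed the test in the authors' deposited table.

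None of the cytokine receptors or the costimulatory gene was called. Csf2ra, the ligand-specific chain of the GM-CSF receptor, stood at 11.6 FPKM in molar and 4.42 in incisor (q = 0.191 in the authors' deposited table). Csf2rb, the beta chain it shares with other cytokine receptors, stood at 7.01 in molar and 7.25 in incisor (q = 0.898). The Csf2rb value is uncertain, since 27.4% of its transcript words occur in its copy Csf2rb2, which stood at 2.14 in molar and 2.30 in incisor. Cd86, which costimulates T cells, stood at 105 in molar and 68.3 in incisor (q = 0.252).

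Mpeg1 had the largest absolute log2 fold of the members and was the sole one called higher in incisor. It encodes a pore-forming protein that attacks bacteria inside phagocytes (chromosome 19, 12460779 to 12465285). It stood at 4.67 FPKM in molar and 49.0 in incisor, 10.5-fold higher in incisor by the authors' deposited table (q = 0.000664). Set against genes of like length, its log2 difference was -2.90. The ratio of Ms4a7 to Mpeg1, both on chromosome 19, was 131 in molar and 3.20 in incisor. Both genes were called, in opposite directions, so this ratio had to differ between the tissues.

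The oxidase genes were not called. Cybb, the membrane subunit that carries electrons to oxygen in the phagocyte oxidase, stood at 19.4 FPKM in molar and 26.0 in incisor (q = 0.357 in the authors' deposited table). Ncf1, the cytosolic organiser of the complex, stood at 10.1 in molar and 5.93 in incisor (q = 0.252). Their partners followed no single direction. Cyba, the small subunit bound to Cybb, stood at 1042 in molar and 588 in incisor (q = 0.208), and none of the 5 companion oxidase genes was called, with 4 higher and 1 lower in molar by value.

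Of the 5 identity markers, 3 were called, all toward molar. Spi1, which encodes PU.1 (chromosome 2, 91096678 to 91115759), stood at 18.6 FPKM in molar and 2.59 in incisor, 7.18-fold with q = 0.000664 in the authors' deposited table, the largest molar-higher fold among the members. Ms4a7, a membrane-spanning protein of macrophages (chromosome 19, 11321039 to 11336146), stood at 613 in molar and 157 in incisor, 3.91-fold with q = 0.00124. Aif1, an actin-binding protein used to stain macrophages and microglia (chromosome 17, 35170992 to 35176001), stood at 479 in molar and 169 in incisor, 2.84-fold with q = 0.0174.

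The classical markers Cd68 and Adgre1 did not follow Spi1. Cd68, a glycoprotein of late endosomes, stood at 1015 in molar and 880 in incisor (q = 0.544 in the authors' deposited table). Adgre1, an adhesion receptor widely used to define mouse macrophages, had the lower value in molar, 73.2 against 136 in incisor, without passing the test (q = 0.143). The macrophage growth factor receptor Csf1r, a defining marker outside the members, stood at 124 in molar and 113 in incisor (q = 0.655). In a separate list of 9 macrophage markers, used to check the cell type and holding neither Spi1, Ms4a7 nor Aif1, Lyz2, C1qb, Cd68, Adgre1, Mrc1 and Csf1r were uncalled, C1qa and C1qc were called toward molar, and Cx3cr1, described below, toward incisor.

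Of the pan-leukocyte genes, Cd53 was called and the other 3 were not. Cd53, a tetraspanin of all leukocytes (chromosome 3, 106758861 to 106790149), stood at 130 FPKM in molar and 43.5 in incisor, 2.99-fold with q = 0.0139 in the authors' deposited table. Coro1a, a coronin that organises actin in leukocytes, stood at 134 in molar and 64.5 in incisor (q = 0.0798). Ptprc, the phosphatase CD45 that defines leukocytes, stood at 11.5 in both molar and incisor (q = 0.993). Laptm5, a lysosomal membrane protein of blood cells, stood at 436 in molar and 519 in incisor (q = 0.491).

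**Figure D3:**
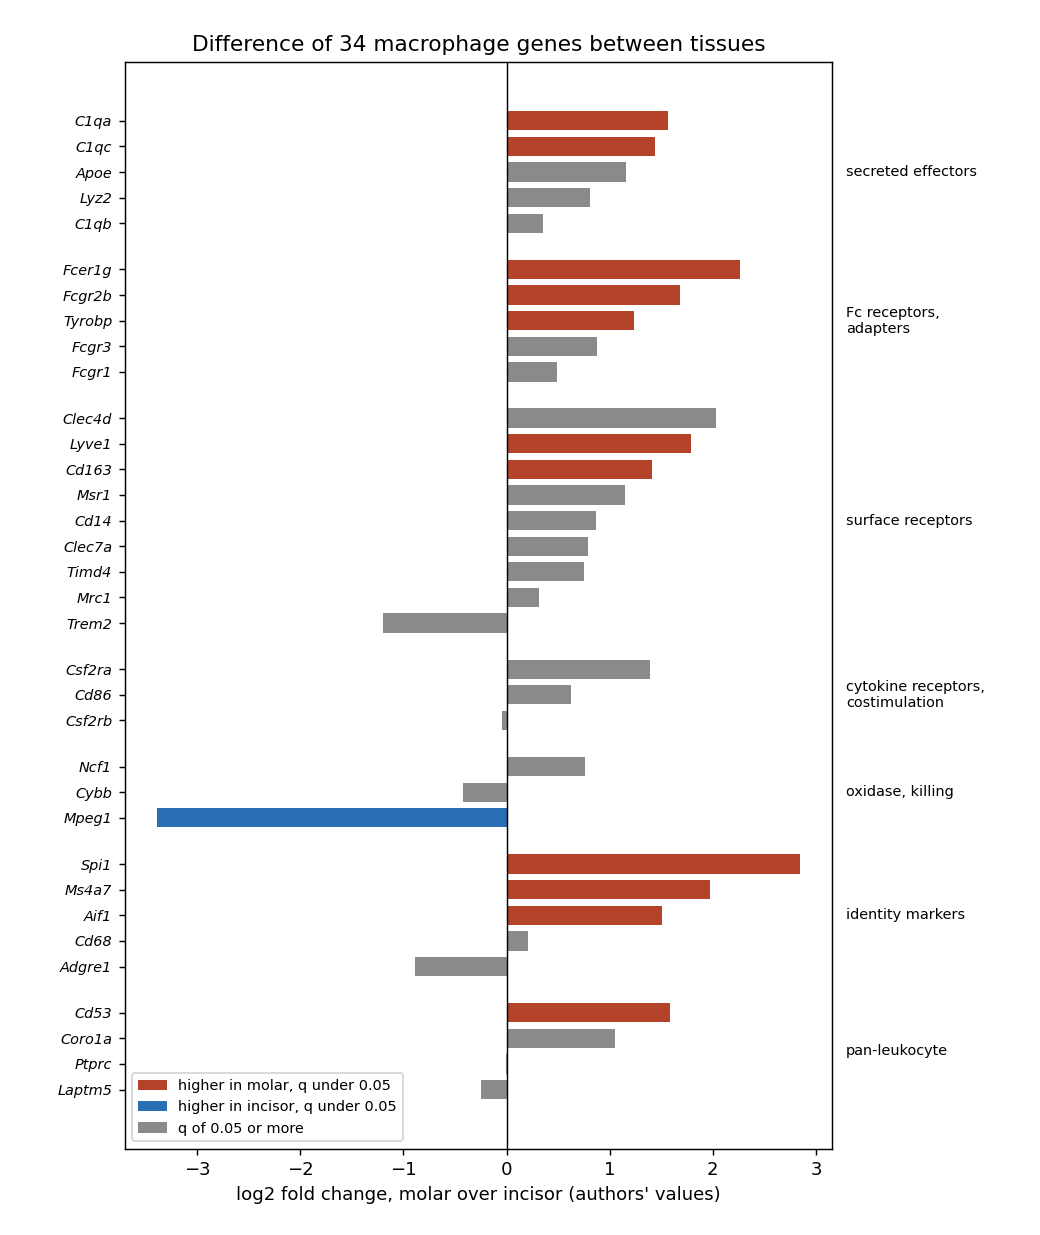
Authors' log2 fold change of molar over incisor (x axis) for the 34 members by role, with bars coloured by the call at q under 0.05. The 11 molar-higher calls are spread over 5 of the 7 roles, and the single incisor-higher call, Mpeg1, has the longest bar at -3.39.

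Because Spi1 itself was called, the windows of 250 bases before the start sites of the members were searched for GAGGAA, the core of the classical PU box, on both strands. RefSeq windows of GRCm38.p6 were at hand for 25 of the 34 members, and a gene with several start sites counted once if any window matched. The core lay in 15 of these 25 (60.0%), against 25.9% of all 27025 genes with a window. Of the 7 with a window that were called higher in molar, Fcer1g, Fcgr2b, Cd163 and Ms4a7 held no match. The other 3 held it, namely C1qc, Cd53 and Aif1, a share of 42.9% against the 60.0% of all 25. The core was thus no more frequent among the members called higher in molar than among all members with a window. C1qc, Cd53 and Aif1 are shown because they hold a match. They are set beside C1qb, the uncalled neighbour of C1qc, and Mpeg1, the gene called the other way, whose window holds no match. They run 5′ to 3′ on the strand of the gene, with the match or its reverse complement in capitals, from chr4:136892915-136893164 (minus strand), chr3:106790150-106790399 (minus), chr17:35176053-35176302 (minus), chr4:136886201-136886450 (minus) and chr19:12460520-12460769 (plus). A match of 6 letters is a description and does not show binding.
C1qc: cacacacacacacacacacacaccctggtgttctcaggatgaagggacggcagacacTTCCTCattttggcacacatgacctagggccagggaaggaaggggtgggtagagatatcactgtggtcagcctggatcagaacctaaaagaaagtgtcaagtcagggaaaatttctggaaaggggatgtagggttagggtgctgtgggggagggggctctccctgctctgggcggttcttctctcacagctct
Cd53: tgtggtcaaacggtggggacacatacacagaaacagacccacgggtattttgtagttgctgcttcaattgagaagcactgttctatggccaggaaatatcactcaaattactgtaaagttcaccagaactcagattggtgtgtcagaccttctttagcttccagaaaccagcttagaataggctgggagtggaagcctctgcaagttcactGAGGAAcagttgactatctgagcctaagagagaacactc
Aif1: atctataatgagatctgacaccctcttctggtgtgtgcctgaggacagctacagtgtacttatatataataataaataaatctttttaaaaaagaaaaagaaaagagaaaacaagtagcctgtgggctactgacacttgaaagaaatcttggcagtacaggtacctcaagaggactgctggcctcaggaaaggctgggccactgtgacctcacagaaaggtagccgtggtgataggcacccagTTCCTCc
C1qb: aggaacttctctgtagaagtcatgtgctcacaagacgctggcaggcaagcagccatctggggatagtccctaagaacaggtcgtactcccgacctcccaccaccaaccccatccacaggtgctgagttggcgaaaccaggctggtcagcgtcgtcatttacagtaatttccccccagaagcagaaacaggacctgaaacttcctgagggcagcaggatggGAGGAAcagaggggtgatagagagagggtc
Mpeg1: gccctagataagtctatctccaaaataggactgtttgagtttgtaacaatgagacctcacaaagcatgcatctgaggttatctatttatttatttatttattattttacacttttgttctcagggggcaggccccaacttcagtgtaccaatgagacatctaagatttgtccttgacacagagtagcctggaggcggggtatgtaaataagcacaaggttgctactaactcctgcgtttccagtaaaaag
In C1qb and Cd53 the core is on the gene's own strand and its first printed base lies 30 and 39 bases before the start site. In Aif1 and C1qc it is on the opposite strand, with the first printed base 7 and 193 bases before the start site. A match was thus present both in a called and in an uncalled C1q chain.

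Companion genes of macrophage pathways, 149 symbols in 14 lists drawn from general knowledge, were read the same way. Of 145 tested in the authors' deposited table, 29 were called toward molar (20%), against 11.9% of all tested rows and 21.7% of those with 5 FPKM or more, and 9 toward incisor, against 4.28% and 9.02%. The share toward molar over these lists together was thus near that of the rows with 5 FPKM or more, and list counts such as 2 of 11 or 2 of 13 are no result about the list. Among C-type lectins, 8 of 12 were called higher in molar and none in incisor. They included Clec4e, the partner of Clec4d that senses damaged cells and mycobacteria (7.66 FPKM in molar, 0.713 in incisor, q = 0.000664), Clec4a2, an inhibitory lectin (72.0 and 12.3, q = 0.000664), and Cd302 (241 and 49.9, q = 0.000664). Clec10a, a galactose-type lectin (161 and 41.7, q = 0.00176), is uncertain because it shares 24.2% of its words with Mgl2. In the MS4A family, neighbours of Ms4a7 on chromosome 19, 4 of 6 tested genes were called toward molar and none toward incisor. These were Ms4a6c (204 in molar, 64.6 in incisor), Ms4a4a (229 and 84.1), Ms4a6b (130 and 52.6) and Ms4a6d (265 and 115). Ms4a6c and Ms4a6b share part of their sequence, 22.8% and 19.3% of their words, with other genes.

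Of the 13 lipid handling genes, 5 had the higher value in molar and 8 in incisor. Called higher in incisor were 4 of the 13, and none was called higher in molar. The called genes were the cholesterol exporters Abcg1 (9.86 FPKM in molar, 65.7 in incisor, q = 0.000664) and Abca1 (3.58 and 8.67, q = 0.0450), the lipase Lpl (6.73 and 33.3, q = 0.00176), and the lysosomal lipase Lipa (34.6 and 87.1, q = 0.0424). Among myeloid transcription factors, Irf8 (31.9 and 5.52, q = 0.000664) and Irf5 (47.8 and 13.6, q = 0.0125) were called higher in molar, 2 of 11, as Spi1 was. Ly96, which binds lipopolysaccharide beside Cd14 (51.9 and 5.80, q = 0.000664), and the adapter Myd88 (52.5 and 14.3, q = 0.00465) were called higher in molar, 2 of 13 pattern recognition genes. Tlr4, their receptor, stood at 2.05 in molar and 3.97 in incisor (q = 0.224). All 8 Toll-like receptors of the list had the lower value in molar, with none called. Their transcripts fall in length classes where the median gene itself had a log2 difference of -0.17 to -0.24, and the part of length was not tested.

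Resident macrophage markers went both ways, with 4 of 12 called toward molar and 1 toward incisor. Pf4, a chemokine of platelets and resident macrophages, stood at 4257 FPKM in molar and 692 in incisor (q = 0.000664), and Folr2, a folate receptor of perivascular macrophages, at 281 and 110 (q = 0.0310) in the authors' deposited table. Cx3cr1, the fractalkine receptor, was called higher in incisor, at 34.9 in molar and 186 in incisor (q = 0.000664), the direction of Mpeg1. Of 13 pan-leukocyte genes, 3 were called toward molar and 2 toward incisor. Was, an actin regulator (14.8 and 1.63), and Srgn, a granule proteoglycan (739 and 101), were higher in molar, while Lcp1, an actin bundler (29.1 and 189), and Lsp1 (22.2 and 73.1) were higher in incisor. Other called genes of these lists, named after their values were seen, were Cbr2, a carbonyl reductase (604 and 239), and Fermt3, an integrin activator (44.7 and 13.8), both higher in molar. Cbr2 is uncertain, since it shares 18.2% of its words with Gm11771.

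**Figure D4:**
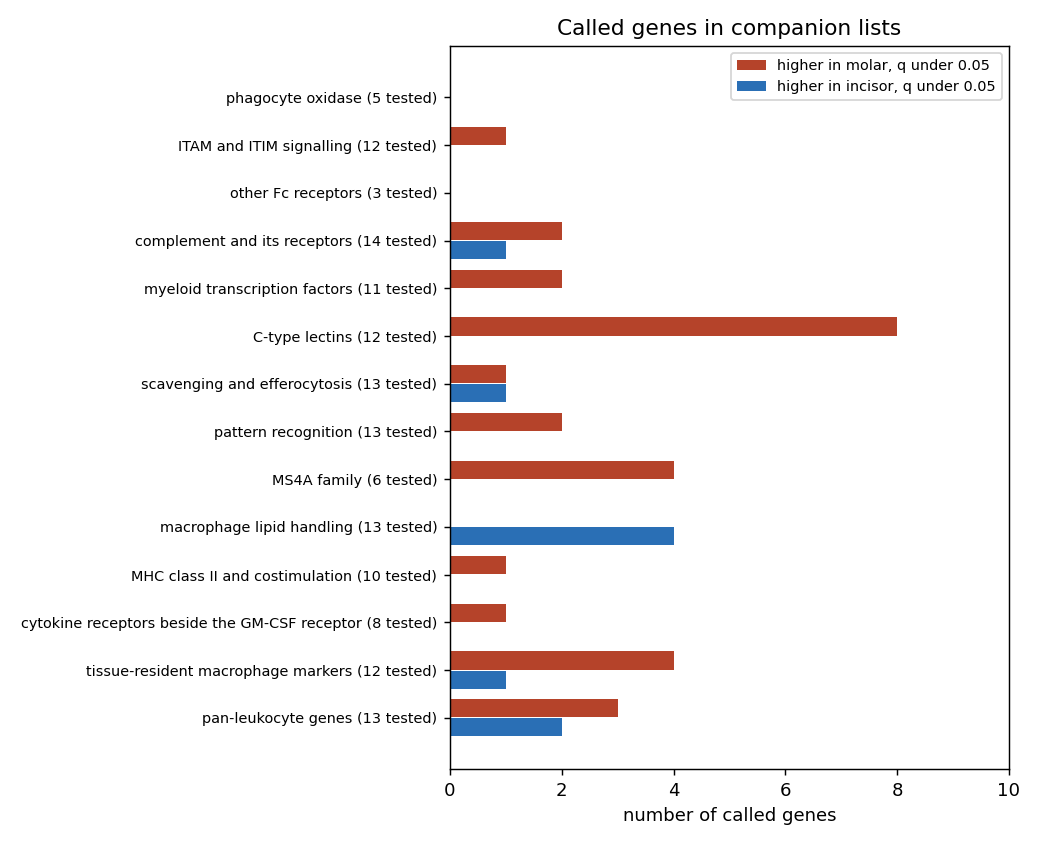
Number of genes called toward molar and toward incisor at q under 0.05 (x axis) in the 14 companion lists, with the number tested beside each name. C-type lectins have the most molar-higher calls, 8 of 12, and lipid handling genes the most incisor-higher calls, 4 of 13.

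The remaining companion lists held few calls. Of complement genes, 2 of 14 were called higher in molar, namely Cfp, which encodes properdin (452 FPKM and 155, q = 0.00881), and C3ar1, the receptor for the C3a fragment (142 and 53.6, q = 0.0308). C1s1, a protease that binds C1q, was called higher in incisor (14.8 and 48.6, q = 0.00465), but 35.6% of its words occur in C1s2 and the value is uncertain. Among kinases and other proteins downstream of the activation motif, Syk, the kinase that docks on that motif, stood at 7.17 in molar and 11.5 in incisor (q = 0.252). Cd83, a surface protein of activated antigen-presenting cells, was the 1 of 10 antigen presentation genes called, at 723 in molar and 30.5 in incisor (q = 0.000664). The list of cytokine receptors gave Il1rn, the interleukin-1 receptor antagonist (45.0 and 16.6, q = 0.0454), and the scavenging list Axl, a receptor for dying cells, called higher in incisor (5.25 and 15.0, q = 0.0310), all in the authors' deposited table. Named after its values were seen, since its level is low, the scavenger receptor Marco was called higher in molar (4.52 and 0.494, q = 0.000664).

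Markers of other leukocytes and of related cells were read beside the members. The 10 neutrophil markers summed to 18.4 FPKM in molar and 27.5 in incisor, and the 7 dendritic cell markers to 8.71 and 18.7. C1qa alone stood at 757 and 255. The monocyte markers Ly6c2 (0.635 in molar, listed at 0 in incisor) and Ccr2 (0.273 and 0.820) were near 0, while Plac8 (283 and 65.5, q = 0.000664) was called higher in molar, as were Nr4a1 (129 and 32.1, q = 0.00124) and Ace (1.05 and 0.105, q = 0.0308), 3 of 7. Osteoclasts, which come from the same precursors, express several of the members. Their 8 markers summed to 682 in molar and 331 in incisor, and Acp5 made up most of the molar sum. Acp5 (503 and 155, q = 0.0316) and Ocstamp (7.84 and 0.359, q = 0.000664) were both called toward molar by the authors' deposited table. By value, 5 markers were higher in molar and 3 in incisor. The latter were Ctsk (161 and 162, q = 0.967), Mmp9 (5.47 and 9.68, q = 0.252) and Atp6v0d2 (0.681 and 1.61, q = 0.291), all uncalled. Calcr, a defining osteoclast gene, had 0.135 FPKM in molar and a listed 0 in incisor. The part of osteoclasts in the members' values was not tested.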

How the data were processed

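RNA of FDG-positive cells from molar and incisor pulp was sequenced, 2 libraries per tissue. Per the submitters' processing notes, mm10 was the build, and edgeR, HISAT2 and Trim Galore are listed without roles; which tool made the table is not given in the labels or headers. Per the file headers, the authors combined the libraries of a tissue into 1 FPKM value and deposited a log2 fold change, a signed test statistic (a score), and a p-value with its q-value. The deposited log2 fold equals molar over incisor FPKM in every member. Tissue names come from the description label of each library.

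The members and gene lists were chosen with earlier results of these data known. No test was made here: calls are the authors' deposited q under 0.05, and whether libraries came from separate animals is not given, so q may measure technical spread. Members are all named. Of a companion list, called genes with 5 FPKM or more are named, up to the 4 largest folds, for marker lists also up to 3 genes with the highest FPKM, and partners or copies of members. Genes outside this rule are defining markers, or were chosen after their values were seen (the lymphatic genes, Lyz1, the joined Glb1 row, Marco, Ace, Cbr2 and Fermt3). Of 223 companion symbols in 25 lists, 221 matched a row. Transcript lengths and shared words of 32 bases were taken from the longest RefSeq-matched transcript of each gene in GENCODE M21, and 10 length classes held equal numbers of genes. Counting and length centring were tested on simulated data. Start positions were moved by 1 base. Python 3.11.15, pandas 2.3.3, NumPy 2.4.6 and SciPy 1.17.1 were used. Pseudocounts, FPKM minimums, thresholds, scalings and read sharing were varied. The depth of the libraries is unknown and sets no interval here. Values of some companion genes are not reported here.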

Additional observations from a re-analysis of the deposited data

How the results depend on the processing

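The count of members called higher in molar fell to 6 of 34 at q under 0.01, against 8.8% of all tested rows at that threshold. The share of rows with 5 FPKM or more was not computed at that threshold. The 6 members were C1qa, Fcer1g, Fcgr2b, Lyve1, Ms4a7 and Spi1. The count stayed at 11 with the authors' own significance mark, with a minimum of 5 FPKM, and over the 32 members that share under 20% of their transcript with other genes. The count higher in incisor was 1 under each of these settings. The members' median log2 difference of 0.87 was 0.87 with a pseudocount of 0.1, 0.83 with a pseudocount of 5, 0.64 after median centring and 0.27 once the FPKM totals were made equal. It was 0.41 when set against genes of like transcript length, a setting chosen after seeing the data, and it did not move with no minimum or with a minimum of 5 FPKM. No called member changed direction under median centring, equal totals, a pseudocount of 1 or the length setting, but these settings could hardly turn a call. Among called rows of the whole table above 0 in both tissues, the smallest absolute log2 fold was 1.097. The largest shift applied was 1.058, in the shortest length class, and a pseudocount cannot change a sign. Uncalled members did change direction: Cd68 under median centring, 4 with equal totals and 6 with the length setting. Calls could not be recomputed under another scaling. No paired analysis was possible because the deposited table holds 1 combined value per tissue, and for the same reason no library could be left out. Depth limits the lowest values to an unknown degree.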

Other observations

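Lymphoid markers outside the macrophage lineage were led by single genes. Of 8 tested T and NK cell markers, Cd4 was called higher in incisor, at 7.45 FPKM in molar and 44.7 in incisor (q = 0.00278), while Cd3e had 0.325 FPKM in molar and a listed 0 in incisor. Nkg7 was called too, listed at 0 in molar and at 0.272 in incisor (q = 0.0183). Among B cell markers Cd79b stood at 71.7 in molar and 37.1 in incisor (q = 0.125), with Cd79a at 1.14 and 0.671 and Pax5 listed at 0 in both. The cells behind Cd4 and Cd79b were not identified.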
